A study of Mus musculus with 115 samples.

Results

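Luteal-like cells with little Sfrp4 mRNA were 345 of the 7975 ovarian cells kept from 94 mouse libraries of somatic or mixed cells. A cell was a member when, per 10000 of its unique molecular identifiers (UMIs, tags that mark 1 captured RNA molecule each), Akr1c18 stood at 1 or more, at least 2 of Spp1, Mrap, Star, Lhcgr and Ptgfr stood at 1 or more, and Sfrp4 stood below 1. The first 2 conditions alone gave 1334 cells, called luteal-like here, and the other 989 of them, with Sfrp4 at 1 or more, are called high-Sfrp4 cells. The 7 genes of the rule chose the members, so their levels are given as a description and were not tested. Only the share of luteal-like cells below the Sfrp4 threshold was compared between genotypes.

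The study looked at what obesity does to the cells of growing follicles, and picked single ovarian cells by hand under a stereomicroscope after digesting the tissue with collagenase. The strain is labelled C57BL/6-129Sv for wild type and C57BL/6 for db/db and ob/ob libraries. The db/db mice carry mutant Lepr, which encodes the receptor of leptin, and the ob/ob mice mutant Lep, which encodes leptin, in every cell, so both lack leptin signalling from birth and are obese. No label used here gives an age, a diet or an animal for these libraries, so the library was the replicate. Several libraries may come from 1 animal, so all p-values rest on a spread between libraries that can be technical.

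After ovulation, the granulosa and theca cells left in the follicle stop dividing, enlarge and become the luteal cells of the corpus luteum. Luteal cells take up or make cholesterol, move it into mitochondria with the protein of Star, cut it to pregnenolone with Cyp11a1 and turn that into progesterone with Hsd3b1. Akr1c18 encodes the 20-alpha-hydroxysteroid dehydrogenase that inactivates progesterone and marks the ageing rodent corpus luteum. Sfrp4 encodes a secreted protein that binds WNT ligands and is made by luteinizing granulosa cells.

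Of the members, 88 were wild type, 180 were ob/ob and 77 were db/db cells, in 6 libraries of each genotype. Libraries with at least 5 members entered the comparisons, which left 5 wild type libraries (6 to 35 members each), 6 db/db libraries (6 to 21 members) and 6 ob/ob libraries (19 to 44 members). Libraries are named by a replicate number that counts them in accession order within genotype and cell label. They are wild type replicates 18 to 22, ob/ob replicates 10 to 14 and 31, and db/db replicates 11 to 14 with mixed replicates 1 and 2, whose labels name somatic cells and oocytes. Wild type thus differed from both mutants in strain and in the library numbers of the labels as well as in genotype, and these cannot be told apart. All libraries used the same 96 cell barcodes, and the 345 members had 345 distinct count profiles.

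The median member held 109974 UMIs in wild type, 182224 in db/db and 126807 in ob/ob, with 2550.5, 4428 and 3932 genes detected. Summed members gave 156958 to 5067673 UMIs per wild type library, 828172 to 4229433 per db/db library and 4171790 to 8004810 per ob/ob library. ERCC spike-in molecules took 21.5% to 80.5% of all UMIs of wild type members, against 6.78% to 17.2% in ob/ob and 5.61% to 11.7% in db/db. Wild type replicate 19 stood apart from the others: its 6 members had a median of 7702.5 UMIs, 80.5% of their UMIs were spike-in molecules and 8.79% of the rest were mitochondrial, against at most 4.36% elsewhere. Results that rest on it are given with and without it.

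The genes of the mutations did not check the labels. Lep had 0 UMIs in the members of every library. Lepr stood at 14.8 ± 12.8 CPM (counts scaled to the library total, with TMM scaling) in wild type (SD, n = 5), at 28.3 ± 27.7 CPM in db/db (n = 6) and at 3.48 ± 5.18 CPM in ob/ob (n = 6). The 3 groups overlapped, and Lepr passed no edgeR test (adjusted p = 0.852 for db/db against wild type, 0.501 for ob/ob against wild type and 0.999 for db/db against ob/ob). Which part of the Lepr transcript the counts cover is not given in the sources used here.

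Members carried several steroid synthesis genes beyond the genes of the rule, but not every luteal marker stood out. Spp1, the secreted phosphoprotein osteopontin, had a median of 481 UMIs per 10000, Akr1c18 16.3 with a 10th to 90th percentile of 1.81 to 193, and Mrap, the accessory protein of the melanocortin receptors, 10.2. Of genes outside the rule, the mitochondrial ferredoxin Fdx1, which passes electrons to Cyp11a1, had a median of 13.5, Hsd3b1 11.1 and Cyp11a1 6.92. The 6229 cells of the 74 libraries without a luteal-like cell had medians of 0.231 for Fdx1, 3.72 for Hsd3b1 and 0.138 for Cyp11a1. Their median UMI count was 70913, against 130647 in members. In the 154 other cells of the libraries with 5 or more members, the medians were 3.40, 1.46 and 2.68. The luteal marker Prlr had a UMI in 38.8% of members, against 35.6% of cells in libraries without a luteal-like cell. Inha, the inhibin alpha subunit, which is counted here with the luteal markers, showed the opposite order, with a median of 6.59 in members and 66.6 in those cells. Granulosa markers were not absent from members. The 15 of them summed to medians of 2978 CPM in wild type, 3417 in db/db and 3233 in ob/ob members. Serpine2 stood at 1 or more in 97.7% of members and in 91.1% of cells in libraries without a luteal-like cell. Fshr did so in 2.03% and 10.2%.

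The other marker genes given for these cells were detected in most members. Runx2, a transcription factor that the LH surge induces in granulosa cells, had a UMI in 87.2% of members (median 0.522 per 10000), Acsl4, which activates arachidonic acid, in 95.4% (median 2.36) and Nts, the neuropeptide neurotensin, in 82.3% (median 0.253). The same genes had a UMI in 5.09%, 33.5% and 4.17% of cells of the libraries without a luteal-like cell, which is 1 background for these shares. The 154 other cells of the libraries with 5 or more members, at a median of 79031.5 UMIs, lay nearer to the members, with medians of 0.222 for Runx2, 0.741 for Acsl4 and 0.183 for Nts. Runx2 and Nts were thus present in most members but at less than 1 UMI per 10000 in the median cell.

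**Figure D1:**
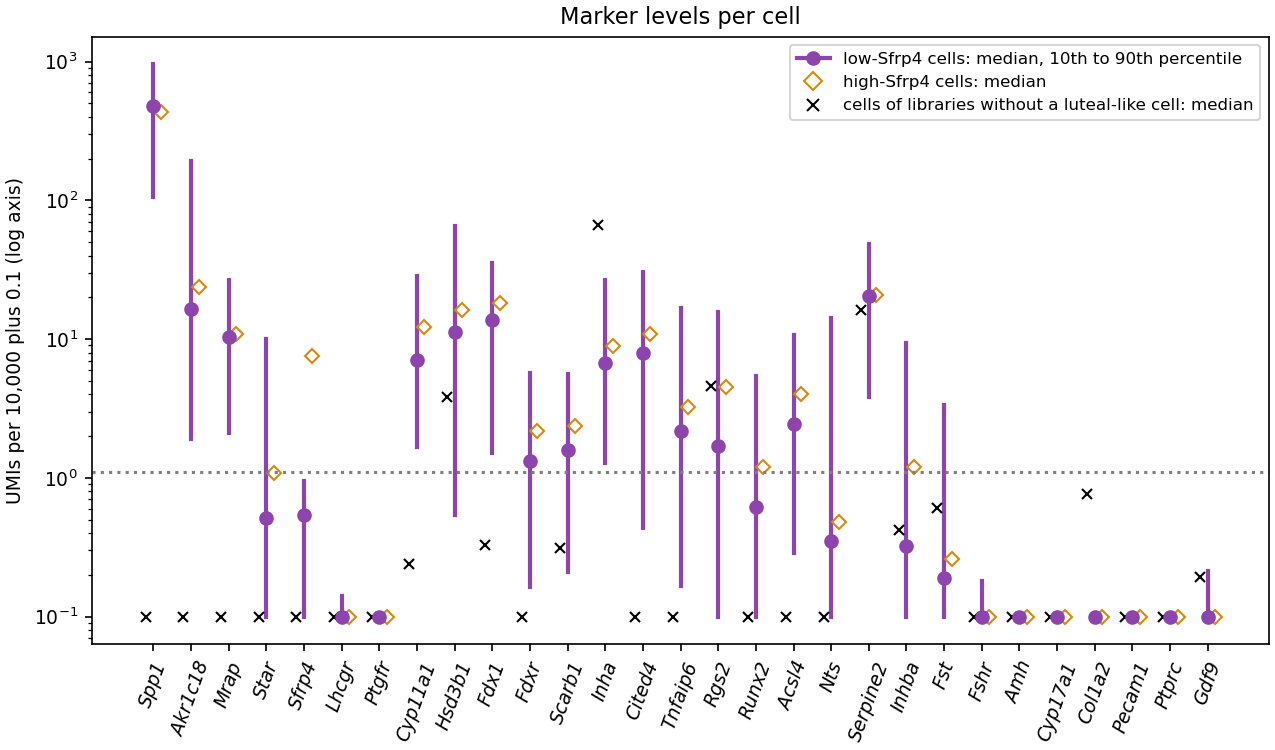
Level of 29 genes per cell, in UMIs per 10000 plus 0.1 on a log axis. Filled points and lines are the median and the 10th to 90th percentile of the 345 low-Sfrp4 cells, diamonds the median of the 989 high-Sfrp4 cells and crosses the median of the 6229 cells of libraries without a luteal-like cell, and the dotted line marks the level of 1 used by the rule. Spp1 leads at 481, and the theca gene Cyp17a1 and the stromal gene Col1a2 lie at the bottom of the axis in members.

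Most members qualified through the same pair of partner genes. Spp1 with Mrap and none of the others served in 191 members (55.4%), and Spp1, Mrap and Star together in 38.6%. Lhcgr, the receptor for luteinizing hormone, and Ptgfr, the receptor through which prostaglandin F2 alpha ends the corpus luteum, were each at a median of 0. In summed counts Ptgfr was at 0 in all 6 db/db libraries and at most at 1.31 CPM in ob/ob, and ranged from 0 to 43.8 CPM in wild type. As a gene of the rule it was not tested.

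Some defining markers of other ovarian cells were at 0, and others, among them markers shared with luteal cells, were not. Cyp17a1 and Insl3 of theca cells, Pdgfra of stroma, and Kdr, Flt1, Tek and Emcn of endothelium had 0 UMIs in the members of all 17 libraries, as did the haemoglobin genes. The 8 stroma markers summed to at most 31.9 CPM in wild type, 47.1 in ob/ob and 24.7 in db/db, and the 13 oocyte markers to at most 395, 35.98 and 46.8. The 9 endothelial markers summed to at most 6.38 CPM in wild type, 13.1 in ob/ob and 61.0 in db/db. Cdh5 of that list had a UMI in 13.6% of members, against 18.8% of cells in libraries without a luteal-like cell. The 8 smooth muscle markers summed to at most 165.6 CPM in wild type, 20.5 in ob/ob and 23.8 in db/db. The whole list of 9 theca markers summed to medians of 601 CPM in wild type, 422 in ob/ob and 381 in db/db, and the 9 surface epithelium markers to 354, 543 and 269. Among these, Mgarp had a UMI in 92.2% of members, Krt18 in 83.2% and Krt8 in 79.4%, against 51.8%, 61.7% and 53.8% of cells in libraries without a luteal-like cell. The 9 macrophage markers had medians of 16.3, 17.7 and 18.3 CPM in wild type, ob/ob and db/db, but reached 2892 in 1 wild type library and 4810 in 1 db/db library, against at most 111.2 in ob/ob. The part of such RNA in the genotype comparisons was not tested.

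Low did not mean absent for Sfrp4. At least 1 Sfrp4 UMI was found in 306 of the 345 members (88.7%), with a median of 5 UMIs, against 9.86% of cells in libraries without a luteal-like cell, and the median of the 154 other cells of the libraries with 5 or more members was 0.601 per 10000. The median level was 0.442 per 10000 in members and 7.42 in high-Sfrp4 cells. The threshold of 1 cut a continuous range: 193 of the members lay below 0.5 and the rest from 0.5 to 1, while 166 cells outside lay from 1 to below 2, 236 from 2 to below 5, and 587 at 5 or more. The highest member stood at 0.997 and the lowest cell outside at 1.00.

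Just inside the threshold Cyp11a1 and Hsd3b1 were lower than just outside it, and Spp1 was higher. From 0.5 to 1 the medians were 506 for Spp1, 14.7 for Akr1c18, 7.11 for Cyp11a1 and 9.39 for Hsd3b1. From 1 to below 2 they were 440 for Spp1, 15.6 for Akr1c18, 9.33 for Cyp11a1 and 14.6 for Hsd3b1.

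Members differed among themselves in Star and the steroid genes that follow it. The 150 members with Star at 1 or more had a median Hsd3b1 of 18.9 against 7.30 in the other 195, a median Cyp11a1 of 9.28 against 5.57, a median Akr1c18 of 23.4 against 13.6 and a median Runx2 of 0.931 against 0.392. The median Sfrp4 was 0.444 with Star and 0.436 without. Members with Star at 1 or more also held more UMIs, with a median of 162978 against 110660, and the part of depth in these medians was not tested. Their share was 40.9% of 88 in wild type, 48.1% of 77 in db/db and 42.8% of 180 in ob/ob.

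At the rule's threshold, low-Sfrp4 cells made up a smaller share of luteal-like cells in db/db than in ob/ob libraries, a difference that was not detected in thinned cells. The share was 36.7%, 85.7%, 17.7%, 44.9% and 10.6% in wild type replicates 18 to 22. In db/db it was 9.68%, 23.6%, 15.96% and 6.52% in replicates 11 to 14, and 8.60% and 21.7% in mixed replicates 1 and 2. In ob/ob it was 40.7%, 29.7%, 29.9%, 27.4%, 54.3% and 44.8% in replicates 10 to 14 and 31. Every db/db share lay below every ob/ob share, and wild type spanned both ranges. The means were 14.3 ± 7.18% (SD, n = 6) in db/db and 37.8 ± 10.7% (n = 6) in ob/ob, a difference of -23.5 percentage points (two-sided exact permutation test, p = 0.00216, adjusted over 3 comparisons p = 0.00649). The share is set by the Sfrp4 threshold of the rule, so this result holds for that threshold only.

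Wild type, at 39.1 ± 29.5% (n = 5), was not separated from db/db (exact permutation test, adjusted p = 0.0909) or from ob/ob (adjusted p = 0.918). The 85.7% of replicate 19 rested on 7 luteal-like cells. Without it the difference from wild type was -13.1 points for db/db and 10.3 points for ob/ob. Without wild type replicate 22 the difference between db/db and wild type was -31.9 points (exact permutation test, adjusted p = 0.0429), the widest with 1 library left out. The threshold on Sfrp4 depends on depth, and high-Sfrp4 cells had medians of 126845 UMIs in wild type, 73751.5 in ob/ob and 119524 in db/db. With every cell thinned to 3000 UMIs, the share was 47.98 ± 13.8% in ob/ob and 31.7 ± 8.73% in db/db (n = 6 each), and the difference no longer passed the exact permutation test (-16.3 points, adjusted p = 0.123). When only cells with 0 Sfrp4 UMIs were counted, the difference was -3.34 points (exact permutation test, adjusted p = 0.260).

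**Figure D2:**
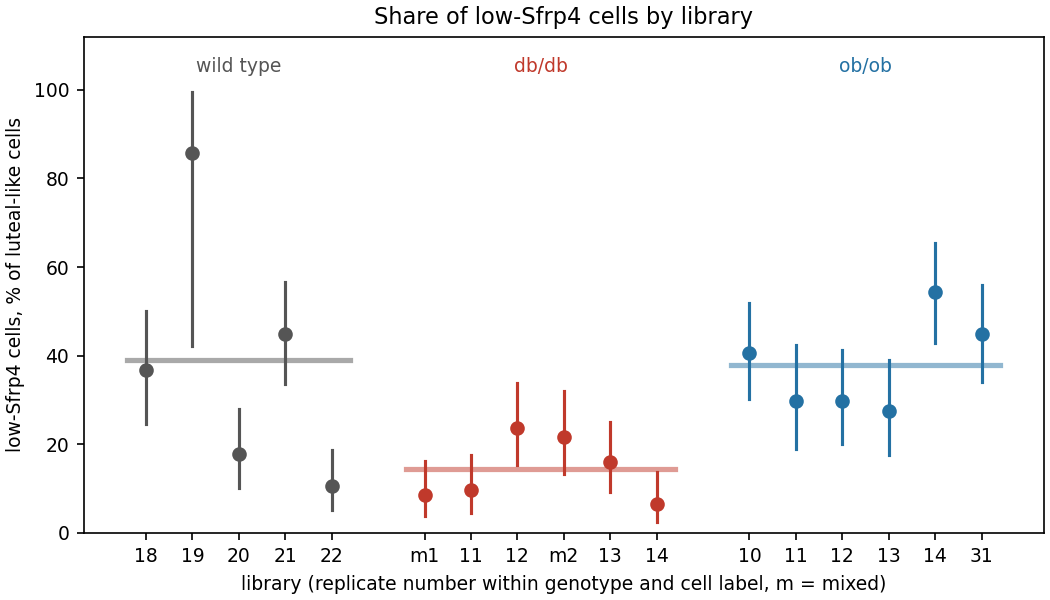
Share of low-Sfrp4 cells among luteal-like cells in each library, in percent. Points are libraries, thin lines exact 95% binomial intervals, which cover counting error only, and thick lines the mean of each genotype; the db/db points lie between 6.52% and 23.6% and the ob/ob points between 27.4% and 54.3%.

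Low-Sfrp4 cells were compared with the high-Sfrp4 cells of the same libraries, in the 16 libraries with at least 5 of each. The rule split these cells by Sfrp4, so the values are a description, with no test. Over 3299 genes at 50 CPM or more the median log2 ratio of low over high was -0.03, with 73 genes at 0.5 or above and 174 at -0.5 or below. No gene was higher in all 16 libraries, and 2 were lower in all 16. These were Epdr1, which encodes a secreted lipid-binding protein, at 168 ± 77.2 CPM in low-Sfrp4 and 408 ± 128.1 CPM in high-Sfrp4 cells (median log2 ratio -1.47), and Cyp11a1, at 1125 ± 512 and 1862 ± 438 CPM (median log2 ratio -0.71).

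Genes of mitosis led the higher side. Smc2, a condensin subunit that compacts chromosomes, had a median log2 ratio of 1.44 and was higher in low-Sfrp4 cells in 13 of 16 libraries. The B cyclins Ccnb2 and Ccnb1, which switch on the mitotic kinase Cdk1, had ratios of 1.34 and 1.28 (13 of 16 each), and Cdk1 itself 0.94 (13 of 16). Spc25 of the kinetochore had 1.35 (10 of 16), Nusap1 and Prc1 of the spindle 1.31 and 1.20 (12 of 16 each), Ube2c of the anaphase-promoting complex 1.27 (12 of 16) and Top2a, the topoisomerase of dividing cells, 1.05 (11 of 16). Ratios of single libraries ranged widely, for Ccnb1 from -3.34 to 2.51. The db/db medians of these 9 genes lay between 1.101 and 2.02, while the ob/ob median was -0.18 for Spc25 and -0.96 for Prc1 and the wild type median -0.26 for Smc2. Of 13 cell cycle genes at 50 CPM or more, 10 had a ratio above 0, with a list median of 0.56.

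Counted per cell, a minority of members carried this signal. The summed level of 21 cell cycle genes reached 10 per 10000, a level chosen after the values were seen, in 89 of 345 low-Sfrp4 cells (25.8%, exact 95% binomial interval 21.3% to 30.8%) and in 190 of 989 high-Sfrp4 cells (19.2%, 16.8% to 21.8%). The medians were the same at 4.24, and the 90th percentiles were 36.4 in low-Sfrp4 and 17.8 in high-Sfrp4 cells. From 8 to below 12, near that level, lay 23 low-Sfrp4 and 93 high-Sfrp4 cells. Thinned to 20000 UMIs, which left out 36 low-Sfrp4 and 157 high-Sfrp4 cells, the shares were 26.5% and 19.1%. The share was the higher one in low-Sfrp4 cells in 12 of 16 libraries.

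By genotype, the median share over libraries of members at that level was 21.4% in wild type (16.7% to 30.0%), 39.4% in db/db (22.2% to 50.0%) and 24.7% in ob/ob (13.04% to 30.0%). The ranges overlapped, and the intervals of the pooled shares cover counting error only, with 16.4% to 29.01% in ob/ob and 26.9% to 49.4% in db/db. The median UMI count was also highest in db/db members.

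Steroid and luteal genes lay on the lower side. Of 7 steroid synthesis genes at 50 CPM or more, 2 had a ratio above 0, with a list median of -0.40. Fdxr, the reductase that feeds ferredoxin, had a ratio of -0.44, Hsd3b1 -0.40 and Fdx1 -0.40 (higher in low-Sfrp4 cells in 2 of 16 libraries), while the mitochondrial cholesterol-binding protein gene Tspo had 0.01. All 8 luteal markers tested for the ratio lay below 0, with a median of -0.40. Among them were the prolactin receptor gene Prlr at -0.97 and Scarb1, the receptor that takes up cholesterol from high-density lipoprotein, at -0.37. Cholesterol synthesis genes lay below 0 in all but 1 of 15, with a median of -0.22. Genes of oxidative phosphorylation, 18 of 30 above 0, had a median of 0.04, near that of all genes.

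Genes that the LH surge induces had no common direction, with 5 of 10 above 0 and a median of -0.01. Ptgs2, the inducible cyclooxygenase, had a ratio of -0.81 and the protease gene Adamts1 -0.77. Runx2 had 0.03, Acsl4 -0.34 (higher in 3 of 16 libraries) and Nts 0.36 (10 of 16, from -5.99 to 3.003). The lowest ratios belonged to the estrogen sulfotransferase gene Sult1e1 at -2.16, the homeobox gene Rhox8 at -1.77 and the surface antigen gene Ly6d at -1.61, followed by Epdr1 and by Wfdc18 at -1.36. Single libraries ranged from -4.88 to 6.29 for Sult1e1 and from -5.04 to 2.08 for Rhox8.

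Across the 1334 luteal-like cells, Epdr1 had the level most like that of Sfrp4 among 2907 genes with a UMI in at least 50% of cells. Spearman's rho was 0.43 over all cells, and its median within libraries was 0.39, from 0.15 to 0.61 in 16 libraries. Avpi1 came next at 0.24. Cells share their library, and Sfrp4 had a rho of 0.04 with the total UMIs of the cell.

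**Figure D3:**
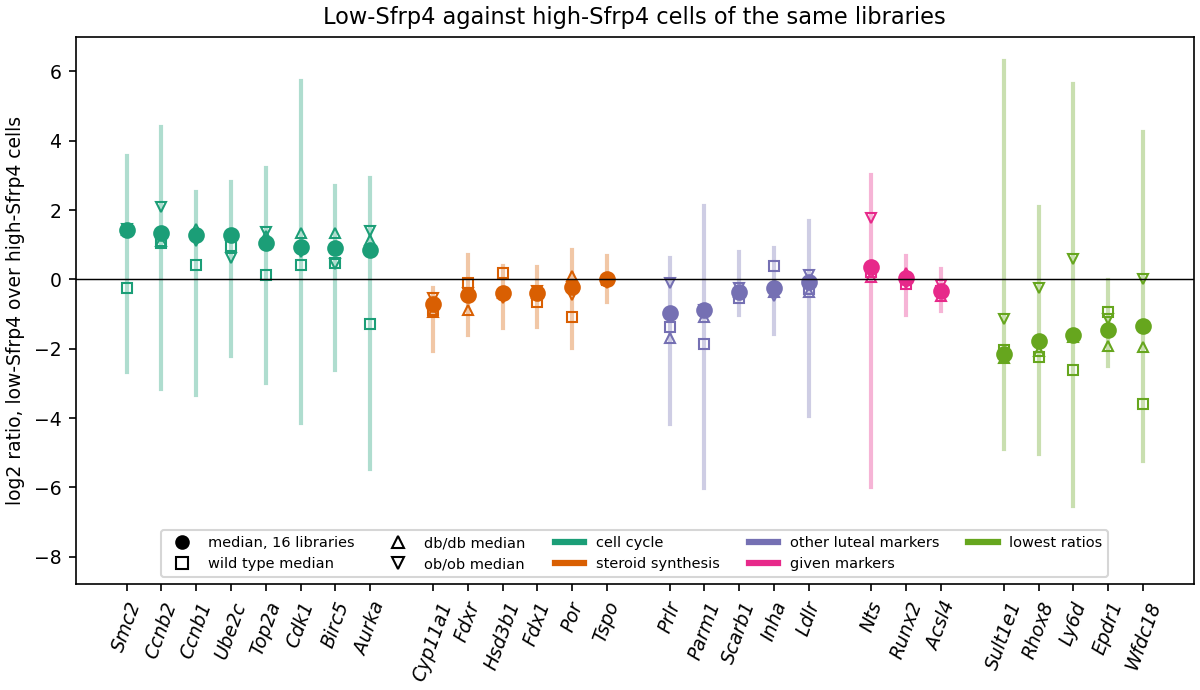
log2 ratio of CPM plus 1 in low-Sfrp4 over high-Sfrp4 cells of the same library, for 5 groups of genes. Filled points are the median over 16 libraries, lines the lowest to highest library, and open squares, upward and downward triangles the wild type, db/db and ob/ob medians; the 8 cell cycle genes have medians above 0, and Cyp11a1 lies below 0 over its whole range.

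Few genes differed between genotypes within low-Sfrp4 cells. For db/db against wild type, 22 of 9630 genes passed edgeR's quasi-likelihood test at an adjusted p below 0.05, which is 0.228% of genes, with 8 higher (0.0831%) and 14 lower (0.145%). For ob/ob against wild type, 7 genes passed (0.0727%), 3 higher (0.0312%) and 4 lower (0.0415%). For db/db against ob/ob, 11 passed (0.114%), 2 higher (0.0208%) and 9 lower (0.0935%). Both comparisons with wild type share the same 5 wild type libraries, and the median log2 change of all genes was 0.14 and 0.17 in them, against -0.03 between the mutants. In simulated data, genes given a log2 change of 2 were recovered in 15.4%, 13.6% and 10.6% of cases in these comparisons, and genes given a change of 4 in 50.8%, 48.4% and 50.0%, so many changes of such sizes would not be called.

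The counts moved with single libraries. Without wild type replicate 18, 19, 20, 21 or 22, db/db against wild type gave 45, 45, 89, 56 and 95 genes. ob/ob against wild type gave 44, 24, 73 and 78 genes without wild type replicate 18, 19, 20 or 22, and 1.07% of 9933 genes without replicate 21. Without db/db mixed replicate 1 or replicate 11, 13 or 14 the first comparison gave 12, 9, 12 and 10. Without ob/ob replicate 11, 12, 13, 14 or 31 the second gave 2, 2, 2, 3 and 2. Whichever library was left out, 9 of the 22 genes, 2 of the 7 and 8 of the 11 still passed. No gene called changed direction under any alternative.

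In the lists of luteal function, no single member passed, which is near the share of all genes tested that did (0.228%, 0.0727% and 0.114%). This held for the 8 luteal markers, 12 steroid synthesis genes, 22 cholesterol synthesis genes, 17 luteal regression genes and 30 genes of oxidative phosphorylation tested, in all 3 comparisons. Hsd3b1 stood at 1416 ± 643 CPM in wild type, 2437 ± 655 CPM in db/db and 3129 ± 1566 CPM in ob/ob (adjusted p = 0.362 and 0.159 against wild type), and Cyp11a1 at 920.4 ± 356, 852 ± 199 and 1337 ± 601 CPM. The median log2 change of steroid synthesis genes was 0.17, 0.36 and -0.16 in the 3 comparisons. Cholesterol synthesis genes lay above 0 in 17 of 22 for db/db against wild type (median 0.76) and in 20 of 22 for db/db against ob/ob (median 0.59). Luteal regression genes lay above 0 in 5 of 17 for db/db against wild type (median -0.94) and in 6 of 17 for ob/ob against wild type (median -0.40). The median of all genes was 0.14, 0.17 and -0.03 in the 3 comparisons. These list values include wild type replicate 19, and the direction of a list as a whole was not tested. Of the given markers, Runx2 stood at 227 ± 161, 189 ± 20.7 and 162 ± 67.0 CPM, Acsl4 at 628 ± 390, 304 ± 63.0 and 341 ± 102.8, and Nts at 581 ± 705, 955 ± 1315 and 361 ± 217, and none of them passed a test.

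Cited4 encodes a CBP and p300 binding coactivator that gonadotropins induce in granulosa cells. It was the 1 member of the 18 LH surge genes to rise, in both mutants, where 0.0831% (db/db) and 0.0312% (ob/ob) of all genes rose. It stood at 259.5, 286, 620, 424 and 338 CPM in wild type replicates 18 to 22. In db/db it ranged from 945 to 2275 CPM with a median of 1661, and in ob/ob from 764 to 2304 with a median of 1652. No mutant library reached down to the highest wild type library. The mean was 386 ± 145.2 CPM in wild type, 1597 ± 487 in db/db (edgeR adjusted p = 0.00234) and 1631 ± 520 in ob/ob (adjusted p = 0.00758), and the mutants did not differ from each other (log2 difference -0.03, adjusted p = 0.999).

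High-Sfrp4 cells, given here and below as CPM without TMM scaling, held 771 ± 190 CPM of Cited4 in wild type, 1935 ± 496 in ob/ob and 1449 ± 408 in db/db. Within wild type the median log2 ratio of low-Sfrp4 over high-Sfrp4 cells was -1.10, against 0.29 in db/db and -0.09 in ob/ob. The test of that difference in genotype effect gave a log2 value of 1.17 for db/db against wild type, which missed the threshold (edgeR adjusted p = 0.0957). In libraries without 5 members Cited4 stayed at or below 349 CPM in every genotype.

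Id3, Gsr, Arf5, Ptges2 and Ttc39c also rose in db/db against wild type. Id3, an inhibitor of DNA binding that BMP signals induce, stood at 63.5 to 1194 CPM in db/db with a median of 706, and at 130, 34.4, 217, 65.3 and 124.8 in wild type replicates 18 to 22. Mixed replicate 2 of db/db lay among the wild type libraries, and the others lay above all of them (679 ± 414 against 114.1 ± 70.1 CPM, edgeR adjusted p = 0.0456). Gsr, the reductase that restores glutathione, rose from 56.96 ± 31.6 to 253 ± 115.6 CPM (adjusted p = 0.0456). It was the 1 passing member of 23 antioxidant genes, where 0.228% of all genes passed. Arf5, a small GTPase of the Golgi, rose from 59.02 ± 34.2 to 249 ± 58.8 CPM (adjusted p = 0.0411). Ptges2, a prostaglandin E synthase, rose from 0.238 ± 0.249 to 22.8 ± 15.9 CPM (adjusted p = 0.0456), with 4 UMIs in all wild type members. Over all kept cells of the libraries with 5 or more members, the median of Ptges2 was 13.3 CPM in wild type and 12.7 in db/db. Its genotype effect differed by a log2 value of 6.08 between low-Sfrp4 and high-Sfrp4 cells, which did not pass (edgeR adjusted p = 0.268). Id3, Gsr, Arf5 and Ptges2 stood at 391.6 ± 154, 161 ± 29.8, 220 ± 46.4 and 23.4 ± 14.98 CPM in ob/ob members, where none passed against wild type. Ttc39c had 2 UMIs in wild type and 450 in db/db (pooled ratio 174, 95% counting interval 47.8 to 1438, edgeR adjusted p = 0.0456). These calls depended on single libraries: with 1 of the 11 libraries left out in turn, Id3 passed in 4 of 11 fits, Gsr in 5, Arf5 in 6, Ptges2 in 4 and Ttc39c in 5. The highest edgeR adjusted p was 0.106 for Id3 without db/db replicate 14, 0.107 for Gsr without replicate 13, 0.0979 for Arf5 and Ttc39c and 0.0841 for Ptges2 without mixed replicate 1.

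**Figure D4:**
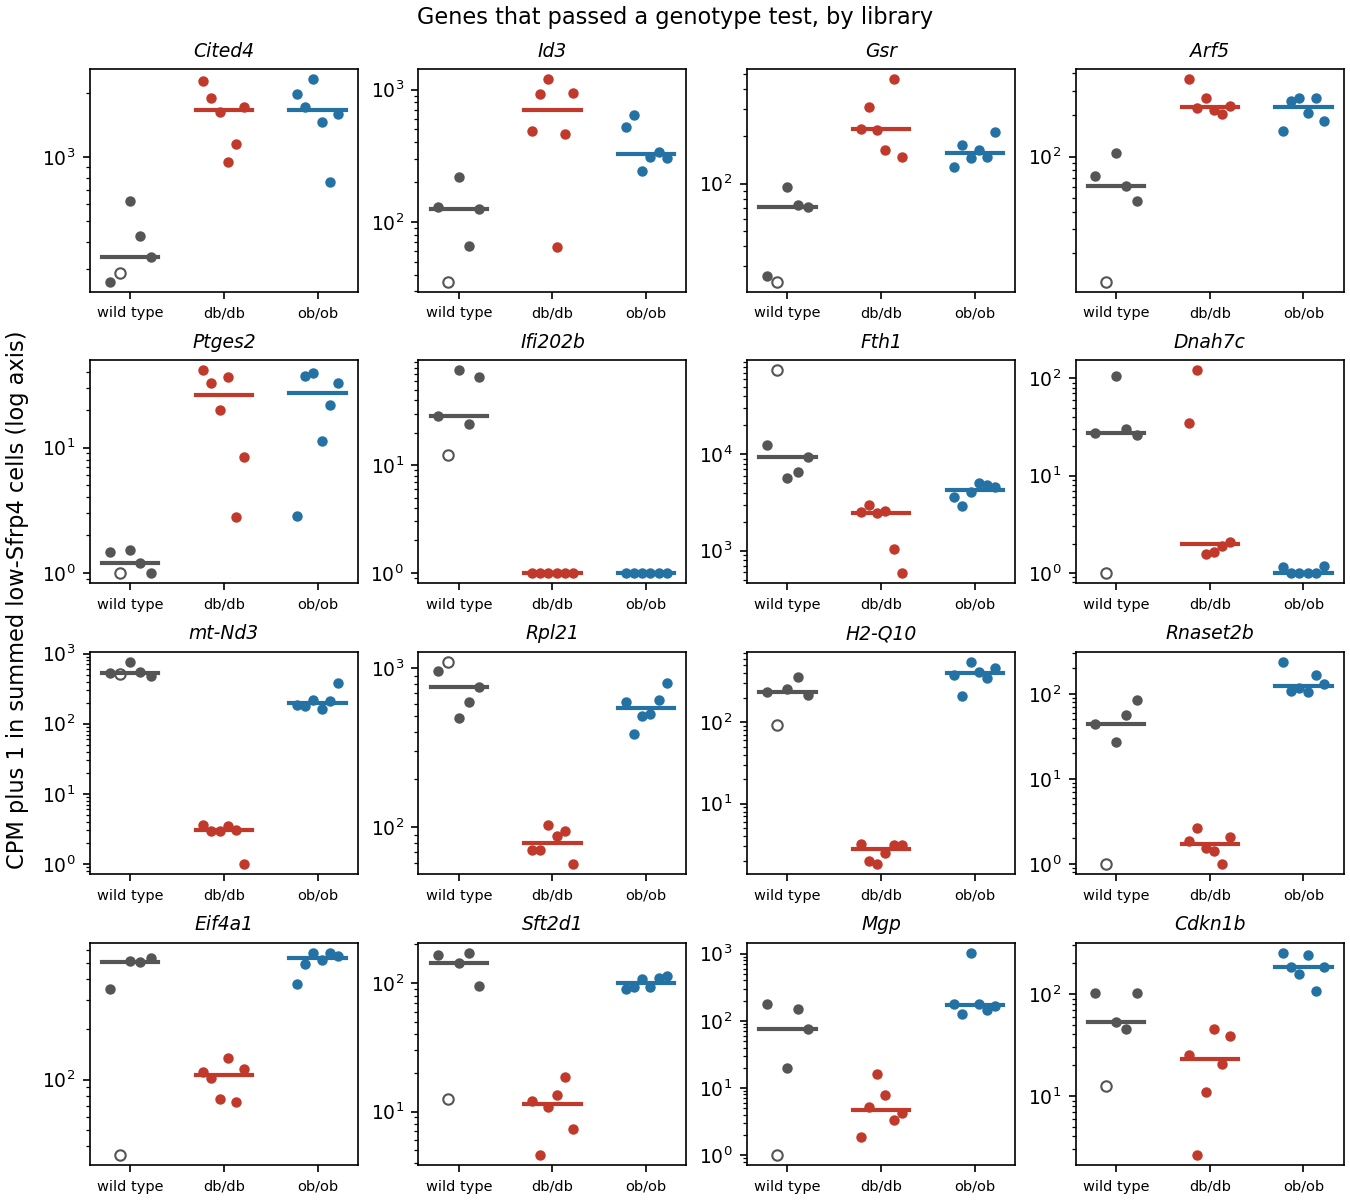
CPM plus 1, on log axes, of 16 genes that passed at least 1 genotype test, in summed low-Sfrp4 cells. Each point is a library, the open circle is wild type replicate 19 and bars are medians; the db/db points of mt-Nd3, Rpl21, H2-Q10 and Rnaset2b lie below all ob/ob points, and both mutants lie above wild type for Cited4.

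Genes lower in the mutants than in wild type included Fth1, the heavy chain of the iron store ferritin. Fth1 stood at 12457, 73853, 5618, 6488 and 9284 CPM in wild type replicates 18 to 22, and at 587 to 3003 CPM in db/db with a median of 2463. Replicate 19 was far above the other wild type libraries, and all 5 lay above every db/db library. The fall to 2016 ± 966 CPM from 21540 ± 29366 had an edgeR adjusted p of 0.0016, and Fth1 passed whichever library was left out. In ob/ob it stood at 4137 ± 808 CPM (adjusted p = 0.0567). The fall in db/db was not limited to these cells. In libraries without 5 members Fth1 stood at 2892 to 5564 CPM in wild type, at 1383 to 2749 in db/db and at 1272 to 3623 in ob/ob.

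Ifi202b, an interferon-inducible gene known to vary between mouse strains, had 454 UMIs in wild type members and 0 in both mutants. It stood at 27.3, 11.5, 74.5, 22.8 and 64.0 CPM in wild type replicates 18 to 22. Against a limit of 3 UMIs over each mutant group it was at least 196-fold lower in db/db (edgeR adjusted p = 0.0205) and at least 388-fold lower in ob/ob (adjusted p = 0.0212). With 1 library left out it passed in 11 of 11 fits for db/db and in 6 of 11 for ob/ob (edgeR adjusted p up to 0.064, without ob/ob replicate 12). Both mutants carry another strain label than wild type, so genotype and strain cannot be told apart for it. Nnt, which C57BL/6J mice carry with a deletion, did not pass (6.47 ± 6.50, 15.5 ± 14.9 and 25.7 ± 21.9 CPM).

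For a set of falls, passing the test rested on wild type replicate 19. Lsm14b stood at 1569 CPM there and at 0 to 59.3 in the other wild type libraries, Itga2b at 641 and at most 21.5, Tlr2 at 1683 and at most 35.7, and Mcl1 at 3184 and at most 248. Without that library none of these 4 genes passed. The other wild type libraries still lay above every db/db library for Mcl1 and above every ob/ob library for Tlr2. Dnah7c, a dynein heavy chain gene, had 2 UMIs in all ob/ob members against 487 in wild type and 452 in db/db (pooled ratio of wild type to ob/ob 624.8, 95% counting interval 172 to 5173, edgeR adjusted p = 0.0292). Its db/db counts came mostly from replicate 11, at 119.6 CPM against at most 33.4 in the others. Dnah7c passed against wild type in 5 of 11 fits with 1 library left out (edgeR adjusted p up to 0.107, without ob/ob replicate 11).

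Another set of falls separated db/db from both other genotypes. mt-Nd3, a mitochondrial gene for a subunit of complex I, stood at 0 to 2.63 CPM in the 6 db/db libraries with a median of 2.02. In wild type replicates 18 to 22 it stood at 523, 504, 768, 551 and 474 CPM, and in ob/ob at 161 to 381 with a median of 196. The ranges were more than an order of magnitude apart. The log2 difference was -8.13 ± 0.51 (SE) against wild type (edgeR adjusted p = 1.08e-10) and -6.78 ± 0.48 against ob/ob (adjusted p = 8.41e-10). The other 7 mitochondrial genes tested did not pass in any comparison, and mt-Cytb stood at 7971 ± 2531 CPM in wild type, 8421 ± 381 in ob/ob and 9523 ± 2022 in db/db. mt-Nd4l, mt-Co2, mt-Co3 and mt-Atp8 stood at 0 CPM in the members of every library and could not be tested. mt-Atp6, also not tested, stood at most at 5.67 CPM in wild type and at 0 in both mutants. Why these mitochondrial rows held so few counts is not given in the sources used here.

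H2-Q10, a secreted class I gene of the major histocompatibility complex, fell from 230 ± 94.2 CPM in wild type and from a mean of 395 in ob/ob (207 to 555 CPM) to 1.61 ± 0.61 in db/db. The db/db libraries ranged from 0.820 to 2.19 CPM, and the lowest of the other libraries, wild type replicate 19, stood at 91.6. The log2 differences were -7.20 (edgeR adjusted p = 6.15e-10) and -7.96 (adjusted p = 1.95e-10). Rnaset2b, a lysosomal ribonuclease gene, was at 0 to 1.63 CPM in db/db and at 104.3 to 238 in ob/ob (log2 difference -7.60, adjusted p = 2.49e-06), with 43.8, 0, 26.2, 54.8 and 84.3 in wild type (log2 difference -5.91, adjusted p = 9.44e-05). Replicate 19 was the 1 wild type library within the db/db range.

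Further genes showed this pattern at smaller sizes. Rpl21, a ribosomal protein gene, was lower in db/db, at 80.5 ± 16.8 CPM, than at 783 ± 250 in wild type (edgeR adjusted p = 1.1e-06) and 575 ± 144.9 in ob/ob (adjusted p = 6.5e-06), with no overlap. Rpl14-ps1, listed as a pseudogene, rose to 110.7 ± 19.1 CPM from 9.27 ± 7.53 (adjusted p = 0.0223) and 11.1 ± 5.67 (adjusted p = 0.0114). Sft2d1, of vesicle transport, fell to 10.1 ± 4.88 CPM from 116.8 ± 66.2 (adjusted p = 0.0016) and 100.2 ± 9.85 (adjusted p = 0.00375). Eif4a1, the helicase of translation initiation, fell to 101.3 ± 23.8 CPM from 387 ± 211 (adjusted p = 0.0467) and 514 ± 74.7 (adjusted p = 0.00972). For Eif4a1 and Sft2d1, wild type replicate 19, at 34.4 and 11.5 CPM, lay within or below the db/db range, and the other 4 wild type libraries lay above it. Dynlt1a, a dynein light chain gene, fell by 4.23 on the log2 scale against wild type, at an adjusted p just under the threshold. Against wild type, with 1 library left out, Rpl21 and Sft2d1 passed in 11 of 11 fits, Rpl14-ps1 in 9, Eif4a1 in 4 and Dynlt1a in 3, with edgeR adjusted p up to 0.0564 for Rpl14-ps1 (without db/db replicate 11) and 0.107 for Eif4a1 and 0.106 for Dynlt1a (without replicate 13).

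Mgp, the matrix Gla protein that inhibits calcification, was lower in db/db, at 5.44 ± 5.12 CPM, than at 84.9 ± 79.0 in wild type (edgeR adjusted p = 0.0256) and 304 ± 358 in ob/ob (adjusted p = 0.000752). The ob/ob mean was raised by replicate 12 at 1034 CPM, with 126.7 to 178 in the other 5. Cdkn1b, which encodes the cell cycle inhibitor p27 that rises as luteal cells leave the cycle, was lower in db/db, at 22.9 ± 16.3 CPM, than at 187 ± 53.8 in ob/ob (adjusted p = 0.031), with 106.8 to 252 CPM in ob/ob and 1.63 to 44.4 in db/db. It was the 1 member of the 22 tested cell cycle genes to pass, where 0.114% of all genes did. Of the 22, 17 had a log2 difference above 0, with a median of 0.72 against -0.03 for all genes. The direction of this list as a whole was not tested. For Cdkn1b, wild type lay between the mutants at 62.0 ± 38.8 CPM and passed against neither. A2ml1, of the alpha-2-macroglobulin family, fell to 0.996 ± 1.61 CPM from 127.8 ± 101.7 in ob/ob (adjusted p = 0.031). With 1 library left out, Mgp passed in 12 of 12 fits against ob/ob and in 7 of 11 against wild type, and Cdkn1b and A2ml1 each passed in 3 of 12. The highest edgeR adjusted p was 0.081 for Mgp against wild type and 0.142 for A2ml1, both without db/db replicate 11, and 0.103 for Cdkn1b without mixed replicate 1.

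Several of these differences were also seen in high-Sfrp4 cells. In high-Sfrp4 cells mt-Nd3 stood at 457 ± 98.2, 3.31 ± 0.91 and 224 ± 77.2 CPM in wild type (n = 4), db/db and ob/ob (n = 6 each), H2-Q10 at 426 ± 138.6, 3.33 ± 0.60 and 510 ± 67.8, and Rnaset2b at 50.7 ± 26.9, 0.857 ± 0.304 and 155 ± 28.3. Rpl21 stood at 691 ± 198, 83.4 ± 18.02 and 633 ± 95.5 CPM, and Mgp at 145.02 ± 107.2, 23.7 ± 23.5 and 144.7 ± 53.9. The genotype effect was tested between low-Sfrp4 and high-Sfrp4 cells of the same libraries, in 4 libraries of wild type and 6 of each mutant. None of 12009 genes (0%) passed edgeR's test in any of the 3 comparisons, where 592, 680 and 456 genes had an unadjusted p below 0.05 and the smallest adjusted p were 0.0957, 0.144 and 0.284. DESeq2's Wald test passed 81 genes, 0.866% of genes and 5 genes. A genotype effect of its own in low-Sfrp4 cells was therefore not detected by the first test, and was called for some genes by the second.

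Some of the differences extended to every library of the genotype, whatever its cells. Over all kept cells, mt-Nd3 stood at 0 to 6.95 CPM in the 32 db/db libraries, at 234 to 752 in the 31 wild type libraries and at 31.97 to 615 in the 31 ob/ob libraries. Rpl21 stood at 65.9 to 318 CPM in db/db, at 465 to 1852 in wild type and at 544 to 1892 in ob/ob, and Rpl14-ps1 at 98.01 to 454, 5.60 to 42.3 and 6.88 to 91.8. For these 3 genes no db/db library overlapped with another genotype. Whether all libraries were aligned and counted against the same annotation is not given in the sources used here, so for these 3 genes a difference in counting and one in RNA cannot be told apart.

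Rnaset2b and H2-Q10 did not extend in the same way. Of 26 db/db libraries without 5 members, 18 held less than 2 CPM of Rnaset2b and 8 held 30 or more, up to 110, so db/db split for it across libraries, a split noticed after the values were seen. H2-Q10 was at 22.8 CPM or less in all libraries without 5 members, of every genotype, and its high values were those of the wild type and ob/ob libraries with luteal-like cells. H2-Q10 belongs to a family of similar genes, and Rnaset2b, Ifi202b, Fth1, Eif4a1, Rpl21 and Rpl14-ps1 have close copies or pseudogenes, so reads could be split between copies in the counting. How such reads were assigned is not given in the sources used here.

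**Figure D5:**
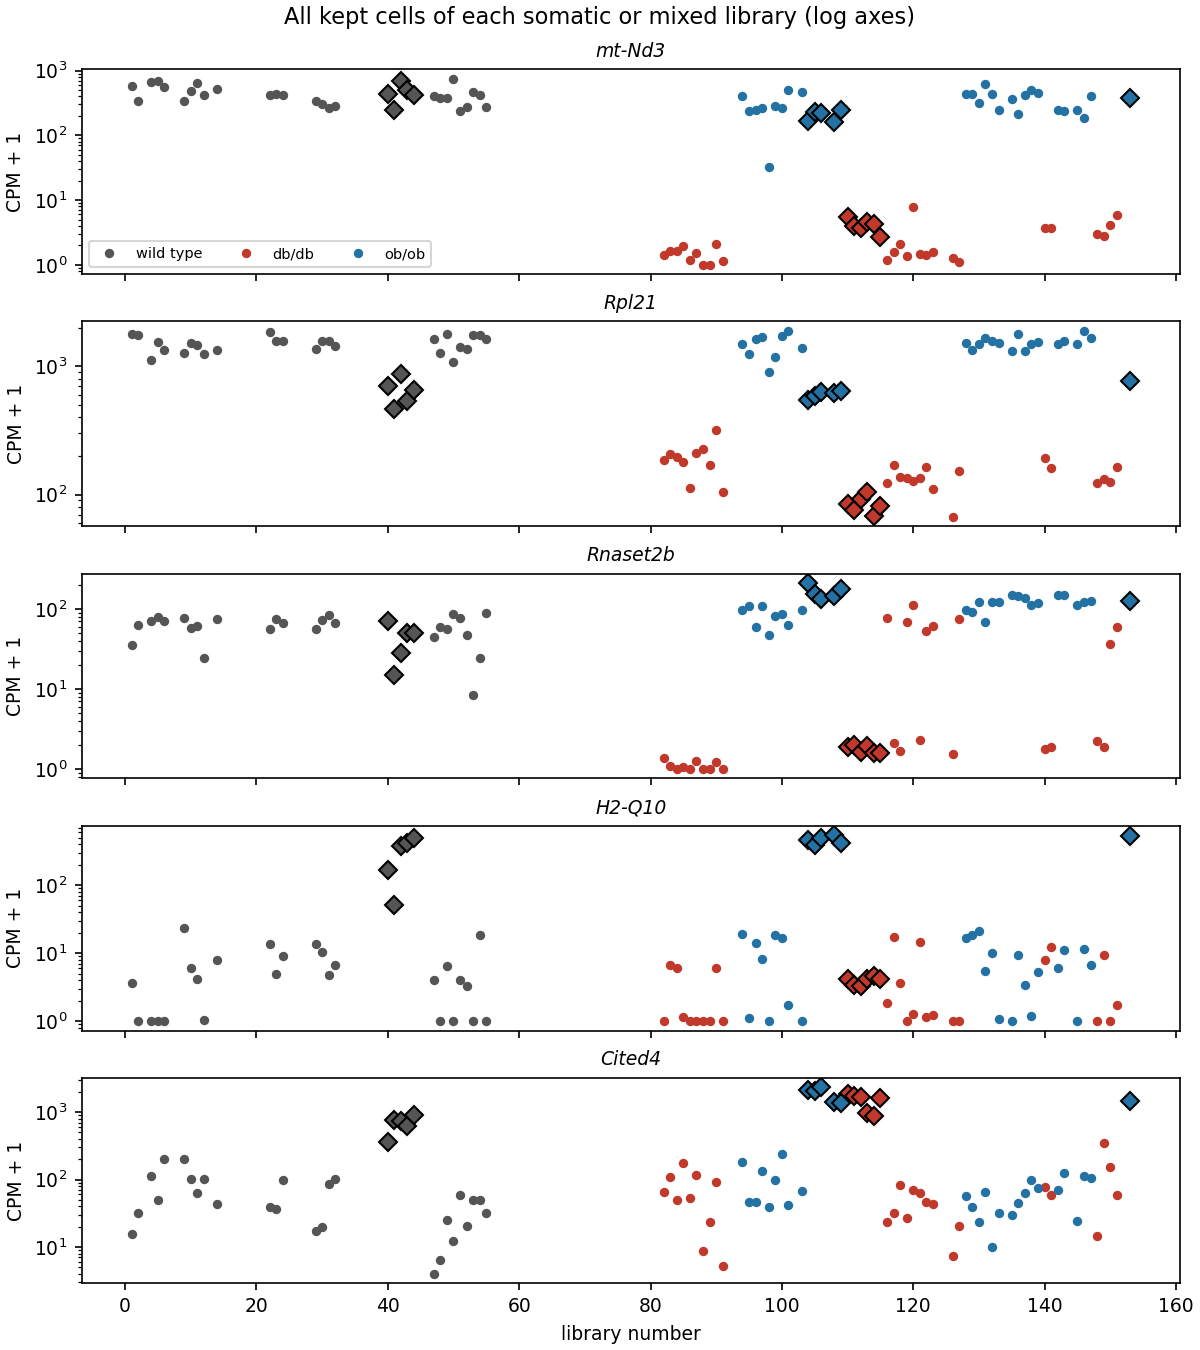
CPM plus 1, on log axes, of 5 genes over all kept cells of each of 94 somatic or mixed libraries, against the library number of the labels. Small points are libraries without 5 low-Sfrp4 cells and diamonds the 17 libraries with them; mt-Nd3 and Rpl21 separate db/db from both other genotypes in every library, while H2-Q10 is high in wild type and ob/ob diamonds and Cited4 in the diamonds of all 3 genotypes.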

How the data were processed

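Single ovarian cells were barcoded, and an Illumina HiSeq X-Ten read the libraries, per the labels' protocols. The authors deposited raw UMI counts per gene and cell, all whole numbers. The build was mm9, per the submitters' processing notes. What aligned and counted the reads, and which gene models it used, is not given in the sources used here, so no coordinates are printed. Of 13254 cell columns, 8657 of 94 libraries labelled somatic or mixed were used, and 4597 columns of 59 other libraries were not used. The 37 mitochondrial rows were named by their transcript identifiers, and 92 ERCC and 3 RGC rows were left out of totals.

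A cell was kept from 1000 genes and 3000 UMIs on. Each well received 1 hand-picked cell, so no doublet caller was run. Members and gene lists were chosen with earlier results of these data known. Member counts were summed per library (5 or more members), filtered by filterByExpr, given TMM scaling and compared by the quasi-likelihood test of edgeR 4.0.16 (R 4.3.3) in 1 fit of the 3 genotypes, adjusted by Benjamini-Hochberg over all genes, with a threshold of 0.05. All adjusted p of genes come from it unless another tool is named. The 7 rule genes were not tested. Shares were compared by exact permutation tests (scipy 1.17.1). Counting intervals and limits from 3 UMIs cover counting error only. Ratios of low-Sfrp4 over high-Sfrp4 cells used log2 of CPM plus 1.

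Named genes were the 8 largest rises and 8 largest falls per comparison among passing genes at 20 CPM or more, up to 4 passing members of each of 34 lists, and fixed genes (the rule genes, Runx2, Acsl4, Nts, Lep, Lepr, Nnt, Ifi202b). Some passing genes are not reported here. Rpl21 and Rpl14-ps1, passing genes that the rule need not name, were named after their values were seen, as were some genes of the low against high description and mt-Cytb. Simulated counts of 9332, 9334 and 9329 genes with 200 changed were put through the same test, which made 0, 1 and 1 false calls. Alternatives were DESeq2 1.42.0, limma 3.58.1 (pseudocount 1), other filters, gates and scalings, the library number as a covariate, and each library left out in turn.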

Additional observations from a re-analysis of the deposited data

Results flagged for a closer look

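In groups of 5 or 6 libraries, a library was marked when its gap to the nearest other, relative to the range, passed Dixon's 95% value. This marked 27 values, where chance marks about 1 group in 20, or 5.7 of the groups looked at. Wild type replicate 19 held 10 of them: the lowest median UMI count of members (7702.5), the highest spike-in share (80.5%) and mitochondrial share (8.79%), and the highest A2ml1 (263 CPM), Fth1 (73853 CPM), Itga2b (641 CPM), Lsm14b (1569 CPM), Mcl1 (3184 CPM), Tlr2 (1683 CPM) and Lhcgr (80.2 CPM). In the other wild type libraries, Dnah7c (104.4 CPM) and mt-Nd3 (768 CPM) were highest in replicate 20.

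In db/db, replicate 14 had the highest mitochondrial share (4.36%), the lowest mt-Nd3 (0 CPM) and the highest Nts (3560 CPM). Mixed replicate 2 had the highest A2ml1 (4.21 CPM) and Lhcgr (7.15 CPM) and the lowest Runx2 (148.3 CPM), replicate 11 the highest Dnah7c (119.6 CPM) and replicate 13 the highest Star (1056 CPM). In ob/ob, replicate 10 had the highest mitochondrial share (3.77%), replicate 11 the highest Itga2b (10.3 CPM) and the lowest Spp1 (27703 CPM), replicate 12 the highest Mgp (1034 CPM), replicate 14 the highest Tlr2 (1.20 CPM) and Ptgfr (1.31 CPM), and replicate 31 the highest mt-Nd3 (381 CPM).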

How the results depend on the processing

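Genes passing a genotype test are given as a percent of the genes tested, in the order db/db against wild type, ob/ob against wild type and db/db against ob/ob, where the main values were 0.228%, 0.0727% and 0.114% (22, 7 and 11 genes). They were 2.65%, 2.13% and 0.571% (255, 205 and 55 genes) with DESeq2's Wald test, 0.420%, 0.250% and 0.280% with cells of at least 2000 genes and 10000 UMIs, 0.132%, 0.213% and 0.0610% without the mixed libraries, and 1.499%, 2.29% and 0.213% (176, 269 and 25 genes) with all luteal-like cells of any Sfrp4, an alternative chosen after seeing the data. Without a low count filter the first 2 were 0.861% and 1.28%, and with the library number as a covariate 0.145% and 0.177%. With only the genotypes compared in the fit, db/db against wild type gave 0.113% and db/db against ob/ob 0.319%. ob/ob against wild type gave 0.280% with limma, run on mean CPM, 0.279% with at least 10 members per library, 0.264% with Sfrp4 below 3 and with 3 of 5 partner genes, and 0.152% with Akr1c18 at 5 or more, where db/db against ob/ob gave 0.206%. With 1 library left out the values ran from 0.0943% to 0.943%, from 0.0212% to 1.07% and from 0.0849% to 0.126%. The higher share of calls moved from 36.4% and 42.9% in the comparisons with wild type to 56.5% and 58.5% with DESeq2's Wald test, and to 92.6% for ob/ob with limma, which differs from the main fit in summing, scaling and test at once and where the median of all genes in that comparison was 0.76 against 0.17. DESeq2 size factors in edgeR gave 21, 6 and 10 genes.

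Of the genes called, mt-Nd3, H2-Q10 and Rpl21 passed under every alternative that gave them a p in both db/db comparisons, and so did Fth1 against wild type and Rnaset2b against ob/ob. No gene called in ob/ob against wild type did. Of 1336 values of named genes under alternatives, 1072 stayed on their side of the threshold in the same direction, 260 lost the call, 4 gained one and 0 changed direction. The test of the genotype effect between low-Sfrp4 and high-Sfrp4 cells passed 0.674%, 0.866% and 0.0416% of genes with DESeq2's Wald test, 0.101%, 0.0954% and 0.0298% without a low count filter, 0.00837% (1 gene) for db/db against wild type with the stricter cells, and 0 otherwise.

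The share difference between db/db and ob/ob was -16.3 points in thinned cells and -3.34 with 0 Sfrp4 UMIs, and ran from -25.5 to -20.2 with 1 library left out. db/db against wild type ran from -31.9 to -13.1. ob/ob against wild type, -1.32 points, turned to 12.2 in thinned cells, 13.6 with Sfrp4 below 3, 12.8 with the stricter cells and 10.3 with at least 10 luteal-like cells per library, and ran from -8.44 to 10.3 with 1 library left out, none of which passed. The cause of these shifts was not tested. Members with 0 Sfrp4 UMIs could not be fitted across genes, since 5 such members were held by 1 wild type and 3 ob/ob libraries and by 0 of db/db. Libraries of different genotypes could not be paired because the labels give no replicate numbers. Low-Sfrp4 and high-Sfrp4 cells were paired within libraries.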
